A study of Bos grunniens with 18 samples.

Results

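Macrophage genes in the yak ovary were defined by 10 symbols, CD84, CD68, CD163, CSF1R, C1QA, C1QB, C1QC, MRC1, CD14 and AIF1. Of these, 1 gene, CD84, was among the 173 genes with values analysed here, and the other 9 were not analysed here. The values below are therefore those of CD84, of the genes beside it on its chromosome and of the genes whose levels were most like its own. Ovaries came from healthy adult yaks (Bos grunniens) aged 6 years, untreated and kept on one farm, at anestrus (April), estrus (August) and pregnancy (December). Polyadenylated RNA of ovarian tissue was sequenced in 9 input libraries, 3 per stage (YO-A, YO-F and YO-P), from ovaries taken from slaughtered animals. A section of the ovarian sample was fixed and the rest frozen, so the RNA need not come from all parts of the ovary. Stage and month of collection cannot be told apart, since all animals of a stage came from the same month. The study set aside the second estrus library after a principal component analysis, and values are given with and without it.

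Macrophages are phagocytes that clear dying cells and cell debris. In the ovary they are known from atretic follicles and from the corpus luteum, where they take part in its formation and regression. CD84 is a cell surface receptor of the SLAM family that binds a second CD84 molecule on a neighbouring cell and signals inside the cell through small adapter proteins. It is found on macrophages, but also on B cells, T cells, mast cells and platelets, so its RNA alone does not name a cell type. The expression table lists for it terms on the plasma membrane, on binding to an identical protein, and on the negative regulation of mast cell activation and of interleukin-18 production. Of 91 marker genes of other cell types in 14 lists (T, B, NK and mast cells, neutrophils, platelets, red cells, endothelium, granulosa, theca and luteal cells, oocytes, stroma, smooth muscle and ciliated epithelium), 0 were among the 173 genes. The label of the tissue and the cells behind the CD84 signal could therefore not be checked against such markers here. In tissue of mixed cells, more CD84 RNA per cell and more cells with CD84 cannot be told apart.

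CD84 (ENSBGRG00000000252) lay on the minus strand of chromosome 3, from 8325462 to 8379941 in the coordinates of the deposited table, with 3 annotated transcripts. Its level is given in FPKM, read fragments scaled to the length of the gene and to the mapped reads of the library, so that genes of unequal length can be compared. In anestrus, CD84 had an FPKM of 1.83, 2.66 and 0.760 in replicates 1, 2 and 3. In pregnancy it had 6.35, 2.87 and 3.85 in the same order. In estrus it had 2.52 in replicate 1 and 2.29 in replicate 3, and 3.65 in the library that the study set aside. All 3 pregnancy libraries were above all 3 anestrus libraries, although the lowest pregnancy library was close to the highest anestrus library. The estrus libraries in use lay below every pregnancy library and inside the anestrus range, whereas the library set aside lay inside the pregnancy range.

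CD84 was a gene of middling abundance among those analysed. Between 41.6% and 61.8% of the 173 genes had a lower FPKM in the same library, with the lowest share in anestrus replicate 3 and the highest in pregnancy replicate 1. The anestrus mean was 1.75 ± 0.952 (SD, n = 3) and the pregnancy mean 4.36 ± 1.79 (SD, n = 3). The estrus mean was 2.40 ± 0.161 (SD, n = 2), or 2.82 ± 0.730 (SD, n = 3) with the second library. Libraries of one stage differed widely in CD84. Without the second estrus library, its spread within stages was an SD of 0.65 on the log2 scale. The median was 0.26 over the 105 genes whose mean FPKM reached 1, and 86.7% of those genes spread less. This was not particular to CD84. Of the genes described below, SLAMF6 (0.72) and ITGB2 (0.75) spread more, and CD96 (0.41), VANGL2 (0.41) and PHLDB2 (0.20) spread less.

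**Figure D1:**
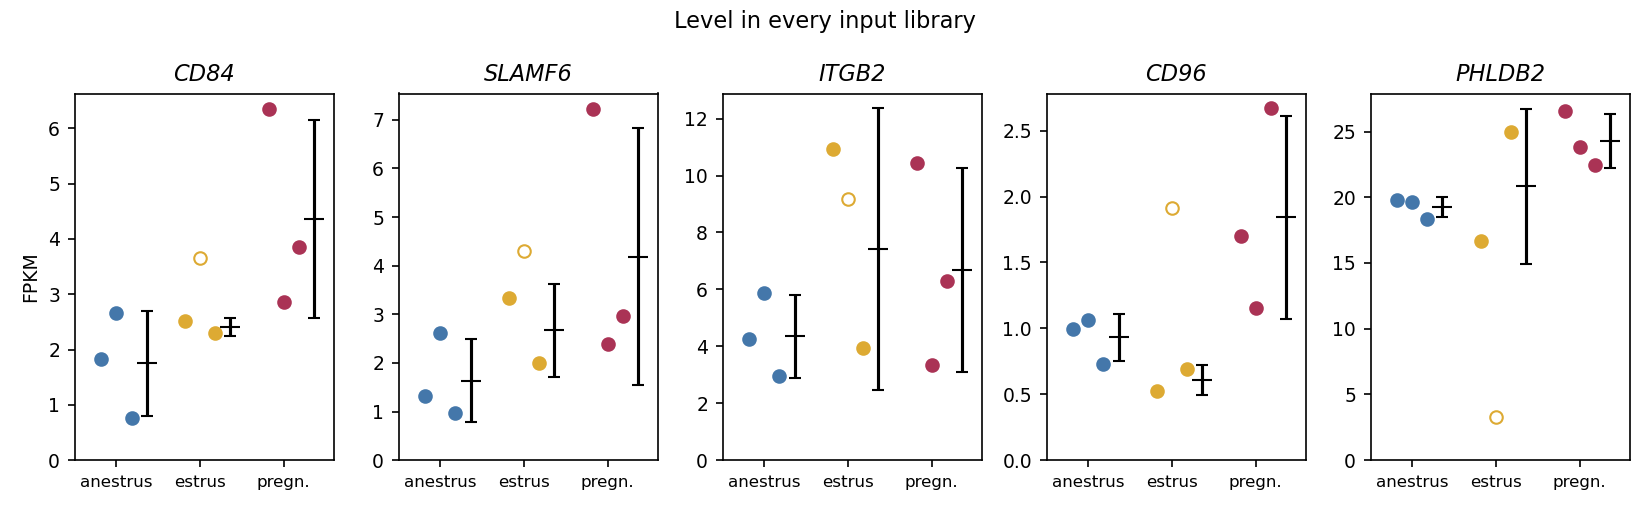
Level in FPKM of CD84, SLAMF6, ITGB2, CD96 and PHLDB2 in each of the 9 input libraries, by stage. Filled points are the 8 libraries used, the open point is the estrus library that the study set aside, and the bars give the mean and SD of the filled points. CD84 reached 6.35 in pregnancy replicate 1 and 0.760 in anestrus replicate 3, and the pregnancy points of SLAMF6 and ITGB2 overlap the anestrus points.

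The first comparison set the pregnant ovary (December) against the ovary at anestrus (April). CD84 was 2.49 times as high in pregnancy as in anestrus by mean FPKM. Stages were compared with limma on log2(FPKM + 0.1), a scale that pulls the changes of low genes toward 0, and a gene was called by the standard of the study, a log2 fold change of 1 or more in either direction and an unadjusted p under 0.05. The log2 fold change of CD84 was 1.35 (95% interval 0.30 to 2.39), which met that standard. So did 3 of the 130 genes tested (2.31%), all of them higher in pregnancy, and by size of rise CD84 came second. With a pseudocount of 1 the only gene called was lower in pregnancy. The genes called besides CD84 were its neighbour SLAMF6 and ENSBGRG00000000121. After Benjamini-Hochberg adjustment over all 130 genes the limma p of CD84 was 0.874, and no gene of the 130 passed at 0.05, while 4 genes had an unadjusted p under 0.05. Every library was higher in pregnancy than in anestrus for 7 of the 130 genes (5.38%), among them CD84, with an exact two-sided permutation p of 0.1, the smallest that 3 libraries against 3 allow. The call did not hold without anestrus replicate 3, where the log2 fold change was 0.87, or without pregnancy replicate 1, where it was 1.04 with an unadjusted p above 0.05.

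The second comparison set the estrous ovary against anestrus. CD84 was 1.37 times as high in estrus by mean FPKM, with a log2 fold change of 0.59 and a 95% interval of -0.58 to 1.76 (adjusted p = 0.743 from limma), and it was not called. The stages overlapped (exact two-sided permutation p = 0.6). By the standard of the study, 1.54% of the genes tested were called. Including the second estrus library gave a log2 fold change of 0.79, and leaving out anestrus replicate 3 gave 0.12. An effect as large as the one between pregnancy and anestrus lies inside this interval, so the data do not show that estrus and anestrus were alike.

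Between estrus and pregnancy, CD84 in estrus was 0.552 times its level in pregnancy. The log2 fold change of -0.76 (95% interval -1.93 to 0.41, adjusted p = 0.676 from limma) did not meet the standard, which 2.31% of the genes met. Both estrus libraries lay below the 3 pregnancy libraries, as did those of 6.92% of the genes tested, and the exact two-sided permutation p was 0.2, the smallest that 2 libraries against 3 allow. With the second estrus library the stages overlapped and the log2 fold change was -0.56. In order of mean level, CD84 was thus lowest in anestrus and highest in pregnancy, and neither step between stages next to each other in this order met the standard.

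**Figure D2:**
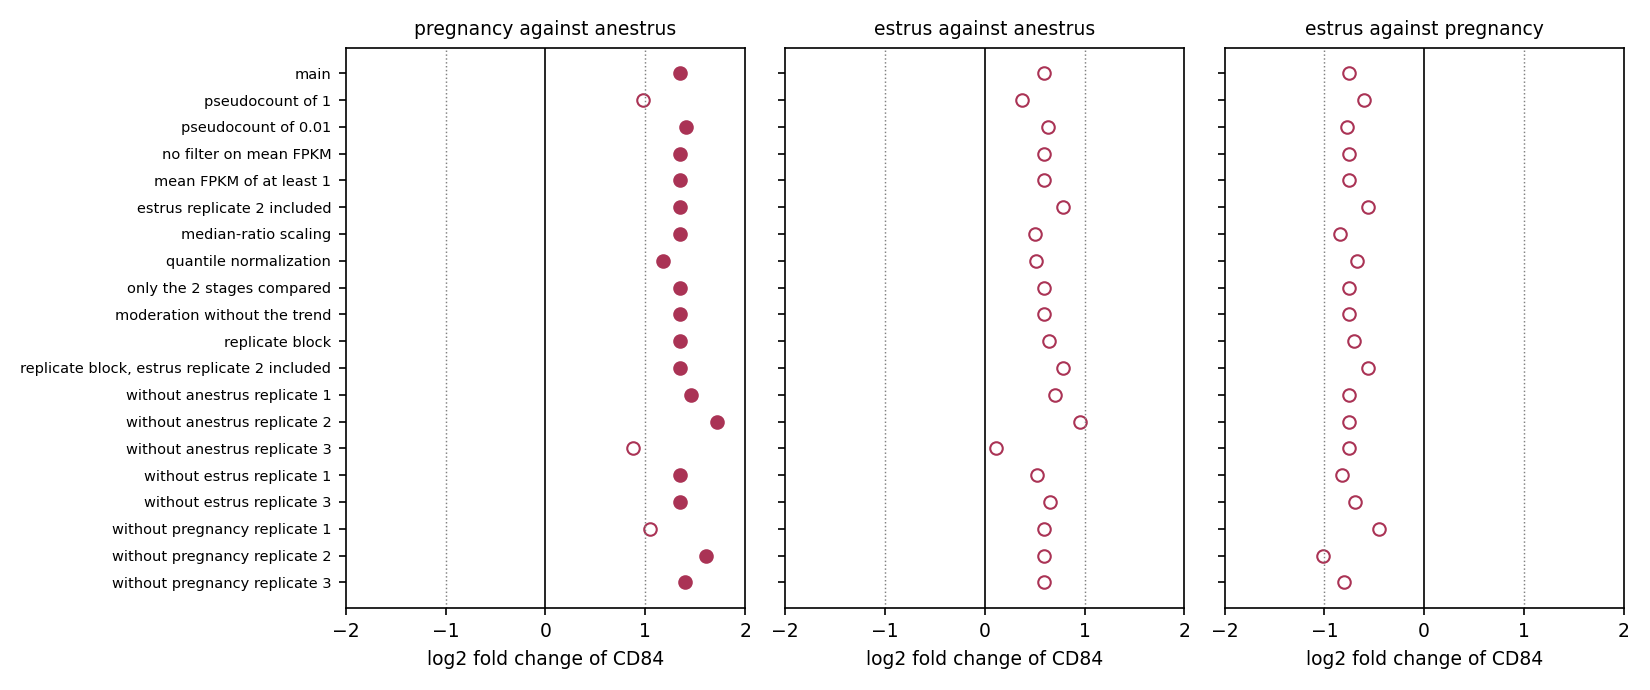
Log2 fold change of CD84 (horizontal axis) in the 3 comparisons for the fit described (top row) and for each alternative (rows below). Filled points meet the standard of the study, open points do not, and dotted lines mark a log2 fold change of 1 in either direction. In pregnancy against anestrus every point lies above 0, and the lowest, 0.87, is the fit without anestrus replicate 3. Filters, moderation, the replicate block and estrus libraries leave the estimate at 1.35. These stages do not overlap, so leaving out 1 library cannot reverse it.

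CD84 lies in a cluster of SLAM family genes, which are thought to stem from duplications of one ancestral receptor gene. In the RefSeq annotation of another yak assembly (Bosgru_T2T1.0), the protein-coding neighbours of CD84 are VANGL2 and SLAMF6 on one side and SLAMF1, CD48 and SLAMF7 on the other. Of the 10 SLAM family and adapter genes listed for comparison, SLAMF6 was the only one among the 173 genes. The table gives it no symbol but describes ENSBGRG00000000226 as SLAM family member 6, at 8267785 to 8289379 on the same strand, 36082 bases from CD84. SLAMF6 is a receptor that binds itself and is known from T cells, B cells and NK cells. Its FPKM was 1.33, 2.61 and 0.974 in anestrus replicates 1, 2 and 3, and 7.22, 2.38 and 2.96 in pregnancy. In estrus it was 3.34 in replicate 1 and 2.00 in replicate 3, and 4.30 in the library set aside. As for CD84, pregnancy replicate 1 was the highest and anestrus replicate 3 the lowest of all libraries, but pregnancy replicate 2 lay below anestrus replicate 2, so the stages overlapped.

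SLAMF6 was higher in pregnancy than in anestrus by 1.25 on the log2 scale (95% interval 0.12 to 2.37, adjusted p = 0.874 from limma). It met the standard of the study, with an exact two-sided permutation p of 0.2. The call was lost without pregnancy replicate 1 (log2 fold change 0.78), anestrus replicate 3 (0.96) or anestrus replicate 1 (1.16). Against anestrus, the log2 fold change in estrus was 0.74 (95% interval -0.52 to 2.00), and against pregnancy it was -0.51 (95% interval -1.76 to 0.75), with stages that overlapped in both. Without 1 library these values ran from 0.38 to 1.12 and from -0.86 to -0.037, the latter without pregnancy replicate 1. The levels of both receptors were close. CD84 stood at 0.755 to 1.38 times the FPKM of SLAMF6 across the 9 libraries, and this ratio did not separate pregnancy (0.879 to 1.30) from anestrus (0.780 to 1.38, exact two-sided permutation p = 0.8).

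The levels of CD84 and SLAMF6 rose and fell together over the libraries. Over the 8 libraries, Pearson's r of log2(FPKM + 0.1) was 0.93 (exact permutation p = 0.00290, adjusted p = 0.0116 over 4 relations) and Spearman's rho was 0.83 (exact permutation p = 0.0154, adjusted p = 0.0615). The permutations of these correlations, here and for the genes below, crossed stages. Their p therefore takes in any stage difference that both genes share, and does not measure the relation within a stage. With the second estrus library, r was again 0.93. Without anestrus replicate 3 and pregnancy replicate 1, the libraries farthest from the median of CD84, r over the remaining 6 was 0.74. After the mean of each stage was taken out, r was 0.87, so libraries of one stage that were high in CD84 tended to be high in SLAMF6 as well. This value was not tested. The libraries hold a common scaling to mapped reads, which touches both genes alike.

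The other neighbours within 200 kb did not show this pattern to the same degree. VANGL2, a gene of planar cell polarity on the opposite strand, had an FPKM of 3.97 to 7.53 over the 9 libraries. Its log2 fold change in pregnancy against anestrus was -0.12 (95% interval -0.80 to 0.55), and its r with CD84 was -0.41 (exact permutation p = 0.338, adjusted p = 0.338). ENSBGRG00000000219, between VANGL2 and SLAMF6 and without a symbol, was low, at 0.0774 to 0.264 in anestrus, 0.291 to 0.459 in the 3 estrus libraries and 0.302 to 0.576 in pregnancy. Its anestrus libraries lay below all others. Against estrus this order held for 9.23% of the genes tested with 9 libraries and 12.3% with 8. Against pregnancy it held for 5.38%, and the share for both stages together was not computed. The log2 fold change of ENSBGRG00000000219 in pregnancy against anestrus, 1.03, was not called (adjusted p = 0.874 from limma). It was called without anestrus replicate 1 (1.35), with no filter on mean level and with moderation without a trend. At such low levels the value turned on the pseudocount, from 0.28 with a pseudocount of 1 to 1.49 with 0.01. It had an r of 0.53 with CD84 (exact permutation p = 0.171, adjusted p = 0.228), which was 0.023 once stage means were taken out.

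**Figure D3:**
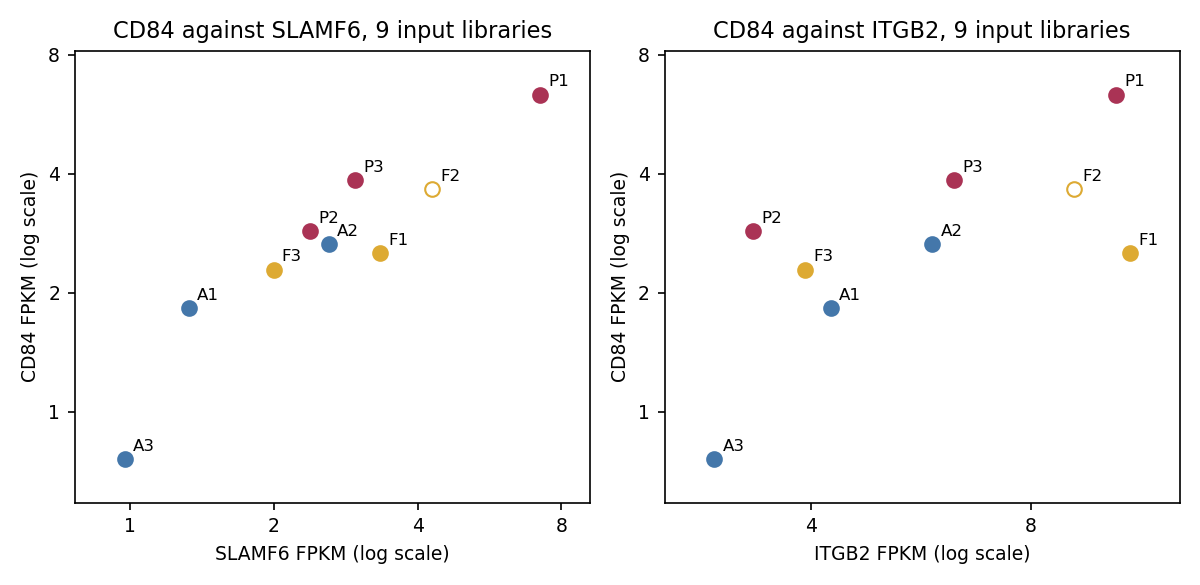
CD84 FPKM (vertical axis, log scale) against SLAMF6 and against ITGB2 FPKM (horizontal axes, log scale) in the 9 input libraries, labelled by stage (A anestrus, F estrus, P pregnancy) and replicate, with the estrus library set aside drawn open. CD84 follows SLAMF6 from A3 at the bottom to P1 at the top (r of 0.93), whereas F1 and P2 stand apart in the plot against ITGB2 (r of 0.68).

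Among 37 further macrophage genes listed for comparison, ITGB2 was the only one with values. ITGB2 encodes the beta-2 integrin chain, which pairs with several alpha chains on macrophages, neutrophils and other leukocytes and serves their adhesion. It lay on chromosome 1 (ENSBGRG00000000208, 157991075 to 158009641), far from the SLAM cluster. Its FPKM was 4.26, 5.86 and 2.95 in anestrus replicates 1, 2 and 3, and 10.5, 3.33 and 6.29 in pregnancy. In estrus it was 10.9 in replicate 1, 3.93 in replicate 3 and 9.17 in the library set aside. The stages overlapped, since each held at least 1 library under 4. No comparison of ITGB2 was called, with log2 fold changes of 0.51 in pregnancy against anestrus (95% interval -0.60 to 1.63), 0.63 in estrus against anestrus (-0.62 to 1.88) and 0.12 in estrus against pregnancy (-1.13 to 1.37). Without estrus replicate 3, however, estrus was called higher than anestrus, by 1.36, and the value in pregnancy against anestrus ran from 0.12 without pregnancy replicate 1 to 0.93 without pregnancy replicate 2. Over the 8 libraries, CD84 and ITGB2 had an r of 0.68 (exact permutation p = 0.0538, adjusted p = 0.108) and a rho of 0.55 (exact permutation p = 0.171, adjusted p = 0.228). Without anestrus replicate 3 and pregnancy replicate 1, r was 0.22, or 0.40 with the second estrus library included. These libraries lie farthest from the median of CD84, so leaving them out narrows its range, which tends to lower r. Over the 8 libraries, r was 0.56 without anestrus replicate 3 alone and 0.52 without pregnancy replicate 1 alone. Within stages r was 0.74. With the second estrus library, r was 0.70 (exact permutation p = 0.0235).

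Set against ITGB2 in the same library, CD84 was 0.431, 0.453 and 0.257 times as high in anestrus replicates 1, 2 and 3. In pregnancy the ratio was 0.607, 0.860 and 0.613. In estrus it was 0.230 in replicate 1, 0.583 in replicate 3 and 0.398 in the library set aside. CD84 thus stood higher relative to ITGB2 in every pregnancy library than in any library of the other stages. The margin to estrus was small, since estrus replicate 3 (0.583) was close to pregnancy replicate 1 (0.607). Over all genes, the ratio to ITGB2 was taken with 0.1 added to both FPKM values. That ratio was higher in every pregnancy library than in every anestrus library for 1.55% of the 129 genes other than ITGB2. CD84 was among these. For 2.33% the ratio was lower in every estrus library than in every pregnancy library. Without that addition, the log2 difference of the CD84 ratio was 0.89 between pregnancy and anestrus (exact two-sided permutation p = 0.1, the smallest possible). Between estrus and pregnancy it was -0.90 (p = 0.2 from the exact permutation test, 2 libraries against 3). Between estrus and anestrus it was -0.01, with ratios that overlapped, and it turned to 0.66 without estrus replicate 1 and to -0.68 without estrus replicate 3. A ratio of FPKM within a library, with nothing added, does not depend on how libraries are scaled. It shows unequal levels of the 2 genes, not which of them differed.

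Likeness to CD84 was ranked by Pearson's r over the 8 libraries among the 104 other genes whose mean FPKM reached 1, as a description with no test. SLAMF6 came first of the 104. ITGB2 came second, and the next were PHLDB2 with an r of 0.61, CD96 with 0.61 and SAMSN1 with 0.57. PHLDB2 encodes a protein that anchors microtubules at the cell edge. CD96 is a receptor of T and NK cells. SAMSN1, an adapter protein expressed mainly in blood cells, is named only as the fifth gene in this order. PHLDB2 and CD96 lie near each other on chromosome 1, CD96 (ENSBGRG00000000198) from 60852787 to 60961654 and PHLDB2 (ENSBGRG00000000255) from 60988247 to 61311797.

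**Figure D4:**
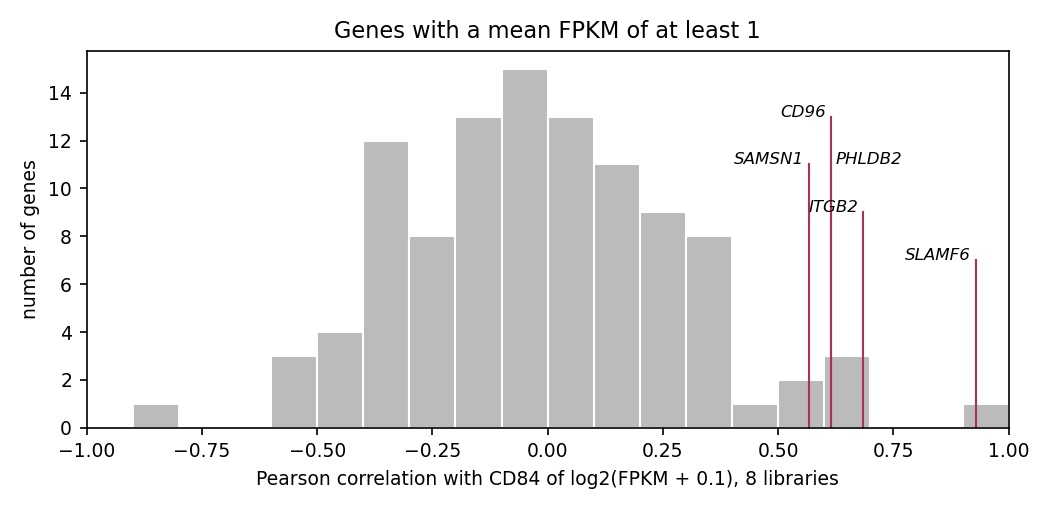
Number of genes (vertical axis) by their Pearson correlation with CD84 of log2(FPKM + 0.1) over the 8 libraries (horizontal axis), for the 104 other genes whose mean FPKM reached 1. Red lines mark the 5 highest genes, with SLAMF6 at 0.93 and SAMSN1 at 0.57.

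CD96 had an FPKM of 0.995, 1.07 and 0.732 in anestrus replicates 1, 2 and 3, and 1.70, 1.15 and 2.67 in pregnancy. Its pregnancy libraries lay above its anestrus libraries, as did those of 5.38% of the 130 genes tested. In estrus it had 0.525 in replicate 1, 0.688 in replicate 3 and 1.91 in the library set aside. Its log2 fold change in pregnancy against anestrus was 0.85 (95% interval -0.04 to 1.75) and was not called, but it was called without pregnancy replicate 2, at 1.13. For estrus against anestrus the log2 fold change of CD96 was -0.54 (95% interval -1.54 to 0.46), opposite in sign to that of CD84, and was not called. It was -0.03 with the second estrus library. In estrus CD96 was lower than in pregnancy by a log2 fold change of -1.39 (adjusted p = 0.255 from limma) and was called. That call was lost with the second estrus library (-0.89), without estrus replicate 1 (-1.23), with a pseudocount of 1 (-0.79) and with quantile normalization (-0.81).

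Over the 8 libraries used, PHLDB2 was far more abundant than CD84 and spread less within stages on the log2 scale. Its FPKM was 19.8, 19.6 and 18.4 in anestrus replicates 1, 2 and 3, and 26.5, 23.8 and 22.5 in pregnancy. In estrus it was 16.7 in replicate 1, 25.0 in replicate 3 and 3.25 in the library set aside, where CD84 was not low. The pregnancy libraries lay above the anestrus libraries, as for 5.38% of the 130 genes tested. The log2 fold change of 0.33 (95% interval -0.04 to 0.70, adjusted p = 0.874 from limma) was not called. Against anestrus, the log2 fold change in estrus was 0.085, and against pregnancy it was -0.24, with stages that overlapped in both. With the second estrus library these values were -0.79 and -1.12, and neither was called. The lower spread of PHLDB2 did not hold with that library. The standard error of the log2 fold change in pregnancy against anestrus was then 0.62 for PHLDB2 and 0.49 for CD84. Without that library it was 0.16 for PHLDB2 and 0.46 for CD84.

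The libraries at the ends of the range of CD84 were shared with some of these genes and not with others. SLAMF6 and PHLDB2, like CD84, were highest of all 9 libraries in pregnancy replicate 1, as were 7.69% of the 130 genes tested, whereas ITGB2 was highest in estrus replicate 1 and CD96 in pregnancy replicate 3. SLAMF6 and ITGB2, like CD84, were lowest in anestrus replicate 3, as were 5.38% of the genes, whereas CD96 was lowest in estrus replicate 1 and PHLDB2 in estrus replicate 2. PHLDB2 and CD96 were chosen for their likeness to CD84 over the same libraries, in which SLAMF6 and ITGB2 rank highest, so shared extremes are no separate observation. The same holds for pregnancy libraries above anestrus libraries in CD96 and PHLDB2, since CD84 itself has this order. Whether leukocyte content has a part in these values was not tested.

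The deposit also holds lists of peaks of N6-methyladenosine (m6A), a methyl mark on RNA, found by immunoprecipitation against the input, with 1 list per stage. The peaks analysed here, 9 in anestrus, 18 in estrus and 282 in pregnancy, all lay on chromosome 1, so the methylation of CD84 on chromosome 3 was not analysed here.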

How the data were processed

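Total RNA of ovarian tissue was poly(A) selected, fragmented, converted to strand-marked libraries and sequenced as paired ends by the authors. They filtered reads with fastp, aligned them with HISAT2 (version 2.0.4 in the submitters' processing notes) to the Bos grunniens genome and deposited FPKM values from StringTie, 1 per gene and input library. FPKM holds no counts, so the depth behind a value is unknown and no counting error was computed. In the peak lists deposited by the authors, the fold enrichment is a ratio of immunoprecipitated to input RNA, and score columns hold the log10 of the p-value and FDR. Tables of the authors' own comparisons of peaks between stages (log2 fold changes and p-values) were not used. The FPKM values analysed here are those of 173 genes, 65 of them without a symbol, and 1 incomplete line was dropped. Of 106 distinct symbols, 95 were in the RefSeq table, as were 9 of the 10 members.

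The 130 genes whose mean FPKM over 9 libraries reached 0.1 were fitted as log2(FPKM + 0.1) with limma 3.58.1 in R 4.3.3, moderated with a trend on mean level, all 3 stages together over 8 libraries. The study's own test needs counts. P-values were adjusted by Benjamini-Hochberg over all 130 genes. The fit was tested on simulated data only for changes far larger than those of CD84, so the simulation does not cover changes of its size. Single values were compared by exact permutation in scipy 1.17.1 (Python 3.11.15). The stages hold different animals. The members, the 6 companion lists (99 genes) and the 14 marker lists were chosen with earlier results of these data known. Of the companion lists (other macrophage genes, CSF1 axis, SLAM family, complement, lysosome and phagocytosis, antigen presentation), 2 genes had values, ITGB2 and SLAMF6. Genes to be named were all members, called or most abundant genes of the companion lists, neighbours within 200 kb of CD84, and the 3 genes with a symbol and the highest correlation with it. Others were chosen after their values were seen. Alternatives were other pseudocounts (1 and 0.01), filters, scalings, fits and sets of libraries, the replicate number as a block, and each library left out in turn.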

Additional observations from a re-analysis of the deposited data

How the results depend on the processing

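For CD84, none of 11 alternatives and 8 fits without 1 library reversed a comparison. Many could not: filters, moderation, third-stage libraries and, where stages do not overlap, any 1 library left out. In pregnancy against anestrus the call was lost with a pseudocount of 1 (log2 fold change 0.97). With 1 library left out, the log2 fold change was 0.87 to 1.71 in pregnancy against anestrus, 0.12 to 0.96 in estrus against anestrus and -1.01 to -0.45 in estrus against pregnancy. Its adjusted p in pregnancy against anestrus ranged from 0.240 to 0.991. Leaving out an estrus library leaves 1, which is then assumed to vary like the other stages.

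The count of genes called in pregnancy against anestrus was 3, all higher, moved to 1, a lower one, with a pseudocount of 1 and to 5 (4 higher, 1 lower) with no filter, and was 1 to 4 without 1 library, the 1 being the fit without anestrus replicate 3. In estrus against anestrus it was 2. It was 1 with a pseudocount of 1, a mean FPKM of at least 1, median-ratio scaling, only the 2 stages compared or the replicate block, 5 with estrus replicate 2 included, with or without the block, and 1 to 9 without 1 library, the 9 being the fit without estrus replicate 3. In estrus against pregnancy it was 3. It was 1 with a pseudocount of 1, 5 with estrus replicate 2 or median-ratio scaling, 6 with the replicate block and estrus replicate 2, and 3 to 9 without 1 library, the 9 again without estrus replicate 3 and a count of 5 without pregnancy replicate 2. The cause was not tested. The fit of the block with estrus replicate 2 was chosen after seeing the data.

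The replicate numbers were not found to pair the libraries. Deviations from the stage means of same-numbered libraries correlated at -0.17 to 0.39 over 7 pairs. Those of libraries with different numbers correlated at -0.39 to 0.48 over 14 pairs. Of the 8 libraries, 2 correlated best with their own number. The 2 estrus libraries in use deviate from their own mean as mirror images, so their pairs are not independent. The block left CD84 called in pregnancy against anestrus (unadjusted p = 0.0232 from limma). Its log2 fold change is fixed, since both stages share replicate numbers.

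SLAMF6 in pregnancy against anestrus was also not called with a pseudocount of 1 or quantile normalization. The correlation of CD84 with SLAMF6 was 0.88 to 0.95 over all alternatives. That with ITGB2 was 0.52 to 0.84. Without 1 library, the log2 fold change of ITGB2 was -0.094 to 1.36 in estrus against anestrus and -0.61 to 0.85 in estrus against pregnancy, that of VANGL2 was -0.31 to 0.096 in pregnancy against anestrus, and the log2 difference of the ratio of CD84 to ITGB2 was -0.68 to 0.66 in estrus against anestrus and -1.57 to -0.23 in estrus against pregnancy. The alternatives planned for peaks gave no value, since no peak of a member was among those analysed. The low number of libraries and the lack of counts limit all values.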

Other observations

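At the other end of the ranking, the gene least like CD84 among the 104 was CHODL, a membrane protein with a lectin domain, with an r of -0.85 and a rho of -0.76 over the 8 libraries. It was chosen after its values were seen, and as the lowest of 104 values it carries no test.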
